A study of Mus musculus with 19 samples.

Results

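SOX3 occupancy was examined at 10 genes of the pluripotency network, *Pou5f1*, *Nanog*, *Esrrb*, *Klf4*, *Klf2*, *Tfcp2l1*, *Prdm14*, *Utf1*, *Zfp42* and *Lin28b*, out of 26182 mouse genes with a RefSeq curated transcription start site (TSS). The genes were taken by name, with no threshold on a measured value. The data were 2 biological replicates of SOX3 chromatin immunoprecipitation followed by sequencing (ChIP-seq) from whole mouse testis at postnatal day 7 (P7) and 2 replicates of SOX3 ChIP-nexus, a variant in which an exonuclease trims the precipitated DNA up to the protein contact. All 4 libraries carried the same label for the tissue and for a pair of SOX3 antibodies, no genetic change or treatment was given for them, and according to the methods the tubules of several mice went into the chromatin. The 15 other labelled samples, among them the input, ZBTB16, SALL4 and histone mark libraries, were not analysed here, so the values below describe SOX3 peaks and compare the genes with all other genes in the same lists. In bulk tissue, a site bound in few cells and a site bound weakly in many cells cannot be told apart, and the cell types of the testis could not be checked from peak lists.

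The pluripotency network keeps embryonic stem (ES) cells in an undifferentiated state. Its core holds the POU factor OCT4 (encoded by *Pou5f1*), the homeodomain factor NANOG and SOX2, and OCT4 binds many ES cell enhancers side by side with SOX2 on a composite SOX-OCT DNA element. SOX3 belongs to the same SOX group as SOX2, and their HMG boxes recognize similar DNA. In the postnatal testis SOX3 marks undifferentiated spermatogonia (uSPG), cells in which *Pou5f1* and *Utf1* are known to be expressed whereas *Nanog* is silent. The question asked of the peak lists was therefore where SOX3 peaks lay at these genes, how strong they were, and whether the known SOX-OCT elements were inside them.

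A peak is described by its q score, which is −10log10 of the FDR given by the authors' peak caller (values above 30 were kept, an FDR of 0.001), and by the log2 ratio of ChIP over input. A promoter peak had at least 1 base within 2 kb of a TSS. The lists held 58351 peaks in replicate 1 and 38832 in replicate 2, with median q scores of 41.4 and 39.5, so that a gene had fewer chances of a peak in replicate 2. The scores came in steps: 98.7% and 98.6% of all peaks had exactly the p score and log2 ratio of another peak of their list, and weak peaks were therefore ranked only coarsely. The lists hold no read counts, and library depth is unknown from them.

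The 10 genes ranged from strongly occupied promoters to promoters with a weak peak, a peak in a single replicate or none. *Klf4* and *Klf2*, which encode Krüppel-like zinc finger factors that can stand in for one another in ES cells, had the strongest promoter peaks in both replicates. *Tfcp2l1* and *Utf1* had weaker peaks in both replicates, *Pou5f1*, *Esrrb*, *Zfp42* and *Lin28b* had a promoter peak in replicate 1 alone, *Prdm14* in replicate 2 alone, and *Nanog* in neither. The promoter sequences of this contrast are shown first, with every CpG dinucleotide in capitals. They run from 250 bases before to 50 bases after the TSS on the strand of the gene (RefSeq promoters, GRCm38.p6, 9 of the 10 genes matched by gene identifier). *Klf4* (chr4:55532426-55532725, minus strand, 40 CpGs) is the gene with the strongest promoter peak and *Nanog* (chr6:122707239-122707538, plus strand, 4 CpGs) the gene with none. For *Lin28b*, the curated TSS (chr10:45470152-45470451, minus strand, 8 CpGs) had a peak in replicate 1 alone, whereas 300 bases of the genome inside a strong peak of both replicates at the upstream end of the gene (chr10:45486265-45486564, minus strand, 48 CpGs) span the most upstream predicted TSS.
Klf4 promoter: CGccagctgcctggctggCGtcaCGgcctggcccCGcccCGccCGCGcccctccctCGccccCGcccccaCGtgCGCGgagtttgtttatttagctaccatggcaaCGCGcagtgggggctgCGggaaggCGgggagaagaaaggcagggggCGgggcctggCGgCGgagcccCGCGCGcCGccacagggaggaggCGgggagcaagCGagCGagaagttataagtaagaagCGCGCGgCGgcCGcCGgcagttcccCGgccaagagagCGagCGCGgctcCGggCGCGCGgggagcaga
Nanog promoter: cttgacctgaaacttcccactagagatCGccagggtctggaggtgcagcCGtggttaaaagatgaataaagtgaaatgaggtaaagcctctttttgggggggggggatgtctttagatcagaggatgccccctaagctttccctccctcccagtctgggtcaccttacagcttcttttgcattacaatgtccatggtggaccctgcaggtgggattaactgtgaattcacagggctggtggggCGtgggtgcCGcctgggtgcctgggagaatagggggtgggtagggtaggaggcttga
Lin28b promoter at the curated TSS: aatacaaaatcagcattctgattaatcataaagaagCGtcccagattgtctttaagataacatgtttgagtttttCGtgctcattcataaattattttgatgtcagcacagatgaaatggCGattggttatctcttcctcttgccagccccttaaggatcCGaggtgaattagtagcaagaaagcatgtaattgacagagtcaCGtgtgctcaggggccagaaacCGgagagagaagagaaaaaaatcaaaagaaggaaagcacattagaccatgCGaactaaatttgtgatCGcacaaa
Lin28b upstream end, inside the peak: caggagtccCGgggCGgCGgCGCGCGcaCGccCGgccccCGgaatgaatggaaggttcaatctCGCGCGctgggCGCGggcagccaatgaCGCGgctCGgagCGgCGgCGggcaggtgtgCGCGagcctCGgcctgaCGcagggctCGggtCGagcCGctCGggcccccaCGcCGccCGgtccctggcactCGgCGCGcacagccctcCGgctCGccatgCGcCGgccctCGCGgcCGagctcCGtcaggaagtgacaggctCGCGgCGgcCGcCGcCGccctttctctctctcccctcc

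Of the 10 genes, 8 had a promoter peak in replicate 1, where 62.7% of all genes had one, and 5 in replicate 2, where 54.7% had one. Both replicates had a promoter peak at 4 genes (*Klf4*, *Klf2*, *Tfcp2l1* and *Utf1*, 40%, against 52.2% of all genes), and at all 4 the peaks of the replicates overlapped (50.8% of all genes). Above a q score of 60 in both replicates, 3 genes were left (*Klf4*, *Klf2* and *Tfcp2l1*), against 35.2% of all genes. Read against the shares of all genes, these counts are not a result particular to the 10 genes, and no test between groups was possible because the lists hold a single condition.

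**Figure D1:**
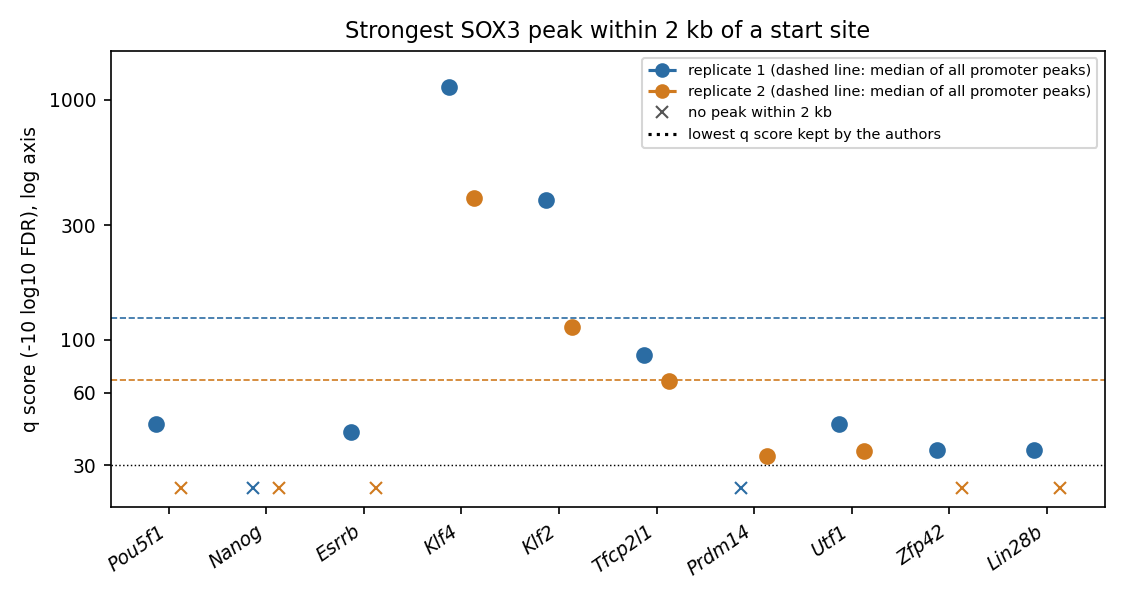
Strongest SOX3 peak within 2 kb of a TSS of each gene, as q score on a log axis, with 1 point per replicate, crosses where no peak was listed, and dashed lines at the median q score of all promoter peaks of each replicate (123 and 67.6). *Klf4* lies above both medians at 1128 and 390.3, *Klf2* at 383 and 113, and the other promoter peaks lie below the median of their replicate.

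Among the core factors, *Pou5f1* (chr17:35506032-35510777, plus strand) has 2 curated TSSs. Replicate 1 had a peak over the upstream TSS (chr17:35505093-35506617) with a q score of 44.7 and a log2 ratio of 2.58, and a second one of 600 bp inside the gene (chr17:35509147-35509746, exonic midpoint) with a q score of 35.9 and a log2 ratio of 1.80. Replicate 2 had no peak in the gene or its promoter, and its nearest peak began 4630 bp downstream of the nearest TSS. Both peaks of replicate 1 count as promoter peaks, since the second lay 340 bp downstream of the second TSS. Promoter peaks of *Pou5f1* were thus seen in 1 of 2 replicates. The stronger one had a score lower than most promoter peaks of that replicate (percentile 19.8 among promoter peaks), and 358 peaks of the list had exactly its values.

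*Nanog* (chr6:122707489-122714633, plus strand) had no peak within 2 kb of its 2 TSSs or in the gene in either replicate. The nearest peak lay upstream, in an intergenic stretch, and was found in both replicates. It covered chr6:122702237-122703331 in replicate 1, with a q score of 67.8 and a log2 ratio of 2.61, and chr6:122702134-122703176 in replicate 2, with 53.8 and 2.42. Its edge was 4158 bp from the TSS in replicate 1 and 4313 bp in replicate 2, and it ranked at percentiles 76.3 and 72.9 of its list. It was the single overlapping peak among the 4 and 3 peaks within 50 kb of *Nanog*.

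*Esrrb* (chr12:86361117-86521628, plus strand) encodes an orphan nuclear receptor that can replace NANOG in part in ES cells. It is the longest of the 10 genes (160512 bp) and had 9 peaks in the gene in replicate 1, all in introns but 1, with q scores of 30 to 46.5. One of them lay 452 bp downstream of the second TSS (chr12:86422096-86422564, q score 41.4, log2 ratio 3.13). Replicate 2 had 4 peaks around *Esrrb* with q scores of 31.2 to 34.0, a single one of them in the gene, and the nearest to a TSS fell just outside the promoter window at 2020 bp. No peak at *Esrrb* overlapped between the replicates, and 1188 peaks of replicate 1 had exactly the values of its promoter peak.

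The naive-state factors included the strongest peaks. At *Klf4* (chr4:55527137-55532475, minus strand) the promoter peak of replicate 1 (chr4:55529846-55534196) had a q score of 1128 and a log2 ratio of 5.79, rank 24 of 58351. In replicate 2 (chr4:55530078-55534532) the q score was 390.3 and the log2 ratio 3.82, rank 60 of 38832. Both peaks were more than 4 kb wide (4351 and 4455 bp), shared 4119 bp, and covered the TSS and the first part of the gene.

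At *Klf2* (chr8:72319062-72321654, plus strand) replicate 1 listed 1 peak of 5343 bp, the widest of all peaks around the 10 genes, which reached from before the TSS to beyond the end of the gene (chr8:72318239-72323581, q score 383, log2 ratio 4.58). Replicate 2 listed a promoter peak (chr8:72318482-72320847, q score 113, log2 ratio 2.56) and a separate peak that began in the gene and lay mostly beyond its 3′ end (chr8:72321397-72323057, q score 53.5, log2 ratio 4.66) in the same stretch. In replicate 2 the peak beyond the 3′ end thus had the higher log2 ratio and the lower q score of the pair.

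*Tfcp2l1* (chr1:118627923-118685168, plus strand), a CP2 family factor of the naive state, had a peak of about 1 kb over the TSS in both replicates, at chr1:118627476-118628556 with a q score of 85.9 and a log2 ratio of 2.94 in replicate 1 and at chr1:118627504-118628619 with 67.1 and 2.52 in replicate 2. Its percentiles among all peaks were nearly the same (80.6 and 80.2). Little else was listed there: replicate 1 had 3 more peaks within 50 kb with q scores of 32.6 to 34.6, and replicate 2 had none.

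*Prdm14* (chr1:13113428-13127163, minus strand) encodes a PR-domain protein needed for the specification of primordial germ cells. Replicate 2 had a promoter peak 999 bp downstream of the TSS with a q score of 32.8 and a log2 ratio of 2.23 (chr1:13125306-13126164). Replicate 1 had a peak beside it, 2125 bp downstream and so just outside the window (chr1:13124418-13125038, q score 38.9, log2 ratio 2.80). These peaks were neighbours in the same gene but did not overlap.

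*Utf1* (chr7:139943856-139945112, plus strand), which encodes a chromatin-associated factor of pluripotent cells and uSPG, had a peak over the TSS in both replicates. In replicate 1 it covered the whole gene (chr7:139943466-139945368) with a q score of 44.7 and a log2 ratio of 2.58, and in replicate 2 it was 686 bp wide (chr7:139943607-139944292) with 34.5 and 2.40. These are low scores, at percentiles 19.8 and 11.5 of the promoter peaks of each list. *Zfp42* (chr8:43295067-43307009, minus strand), which encodes the zinc finger marker REX1, had a single peak within 50 kb over both lists, 1122 bp downstream of the TSS in replicate 1 (chr8:43305394-43305887, q score 34.6, log2 ratio 2.22). Replicate 2 had none, and its nearest peak was 1379632 bp from the TSS.

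*Lin28b* (chr10:45376617-45486314, minus strand), which encodes an RNA-binding protein that blocks maturation of let-7 microRNAs, gave a different picture according to the TSS used. At the curated TSS, replicate 1 had a peak 57 bp downstream (chr10:45469619-45470144) with a q score of 34.6, the same values as 2780 peaks of the list, and the nearest peak of replicate 2 was 15273 bp away. At the upstream end of the gene, 16113 bp from the curated TSS, a peak was found in both replicates, with a q score of 233 and a log2 ratio of 4.32 in replicate 1 (chr10:45485489-45487191) and with 83.4 and 3.19 in replicate 2 (chr10:45485474-45486933). All 4 TSSs of predicted RefSeq transcripts in that stretch were inside both peaks. The *Lin28b* peak ranked at percentiles 92.3 and 85.3 of its list, higher than the promoter peaks of *Tfcp2l1* and *Utf1*.

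In the 300-base promoters, CpG content at the 4 genes with peaks in both replicates ran in the order of their q scores. CpG observed/expected, the number of CpGs over the number expected from the C and G content, was 0.974 at *Klf4*, 0.889 at *Klf2*, 0.656 at *Tfcp2l1* and 0.615 at *Utf1*, with a median of 0.772. The 5 other genes with a promoter sequence had 0.708 (*Lin28b*, curated TSS, with 8 CpGs in an AT-rich stretch), 0.441 (*Zfp42*), 0.388 (*Pou5f1*), 0.318 (*Esrrb*) and 0.192 (*Nanog*), with a median of 0.388 and the higher of 2 TSSs taken. Over 1 kb centred on the TSS the order of the first 4 was not kept, with 0.959 at *Klf4*, 0.817 at *Utf1*, 0.734 at *Klf2* and 0.586 at *Tfcp2l1*. In the 300-base window *Lin28b* was the gene of the second set inside the range of the first, and over 1 kb it was *Esrrb* (0.661), with *Lin28b* at 0.437. The *Lin28b* sequence at the upstream end, inside the peak of both replicates, had 1.07 over its 300 bases. Across the genome, promoters of genes with a promoter peak in both replicates had a median of 0.761 (quartiles 0.547 and 0.913, 13605 promoters). A peak at any TSS of the gene counted, so some of these promoters may themselves have had none. Promoters of genes without a promoter peak had a median of 0.185 (0.0901 and 0.320, 6912 promoters). The difference among the 9 genes had the direction seen between these sets. The values are a description over 9 genes, and no test was made of it.

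**Figure D2:**
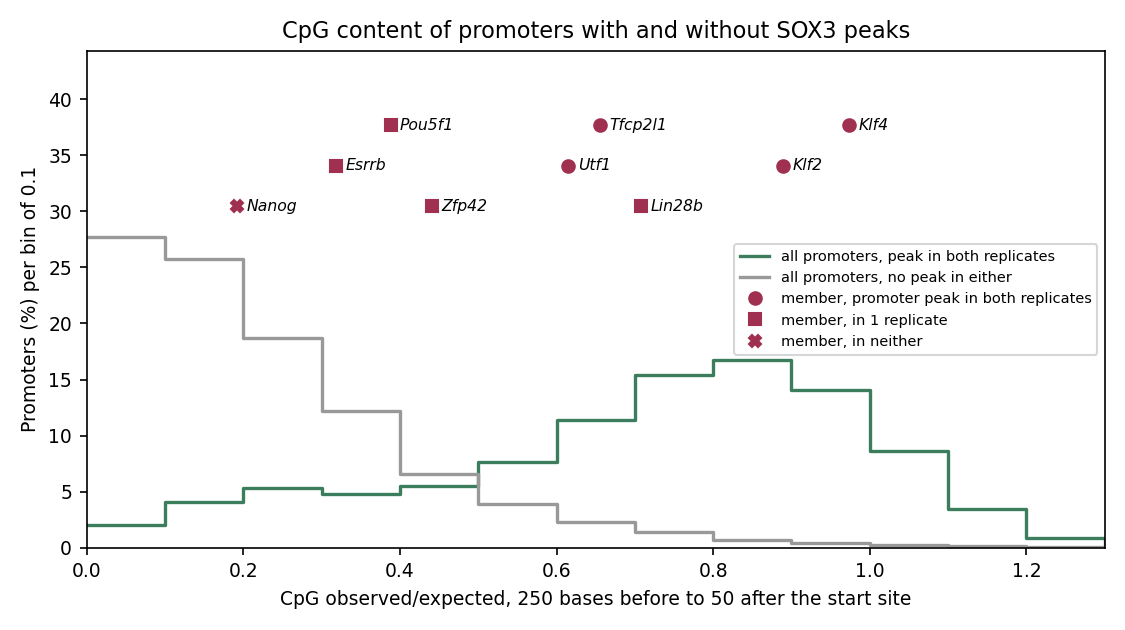
CpG observed/expected of 300-base promoters, as the percentage of promoters per bin of 0.1. All promoters are split into those of genes with SOX3 promoter peaks in both replicates and those of genes with none. The 9 matched genes stand above at their own values (height carries no meaning). *Klf4*, *Klf2*, *Tfcp2l1* and *Utf1* lie between 0.615 and 0.974, where promoters of genes with peaks are common, and *Nanog* lies at 0.192.

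Within the gene itself, 9 of the 10 genes had at least 1 peak in replicate 1 (66.3% of all genes) and 7 in replicate 2 (59.3%). The exceptions were *Nanog* in both replicates and *Pou5f1* and *Zfp42* in replicate 2. Within 50 kb of the gene, all 10 genes had a peak in replicate 1 (82.9% of all genes) and 9 in replicate 2 (79.8%), the exception being *Zfp42*. A longer gene or a wider window offers more room for a peak, but these shares were not counted by gene length. Most genes of the genome had such peaks.

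In all, 77 peaks of replicate 1 and 47 peaks of replicate 2 lay within 50 kb of the genes, of which 56 and 39 were outside both the gene and its promoter. Their median q scores (41.4 and 38.3) and log2 ratios (2.87 and 2.86) were close to those of the whole lists (q score 41.4 and 39.5, log2 ratio 2.85 and 2.77). The number per gene ran from 17 and 13 at *Klf2*, 16 and 7 at *Pou5f1* and 14 and 5 at *Utf1* down to 1 and 0 at *Zfp42*, against a median of 5 and 3 over all genes. The median of the 10 genes was 5 and 4.5. *Klf2* was at percentiles 87.8 and 91.8 of all genes for this number, *Pou5f1* at 85.8 and 72.0, and *Zfp42* at 21.6 and 10.1.

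**Figure D3:**
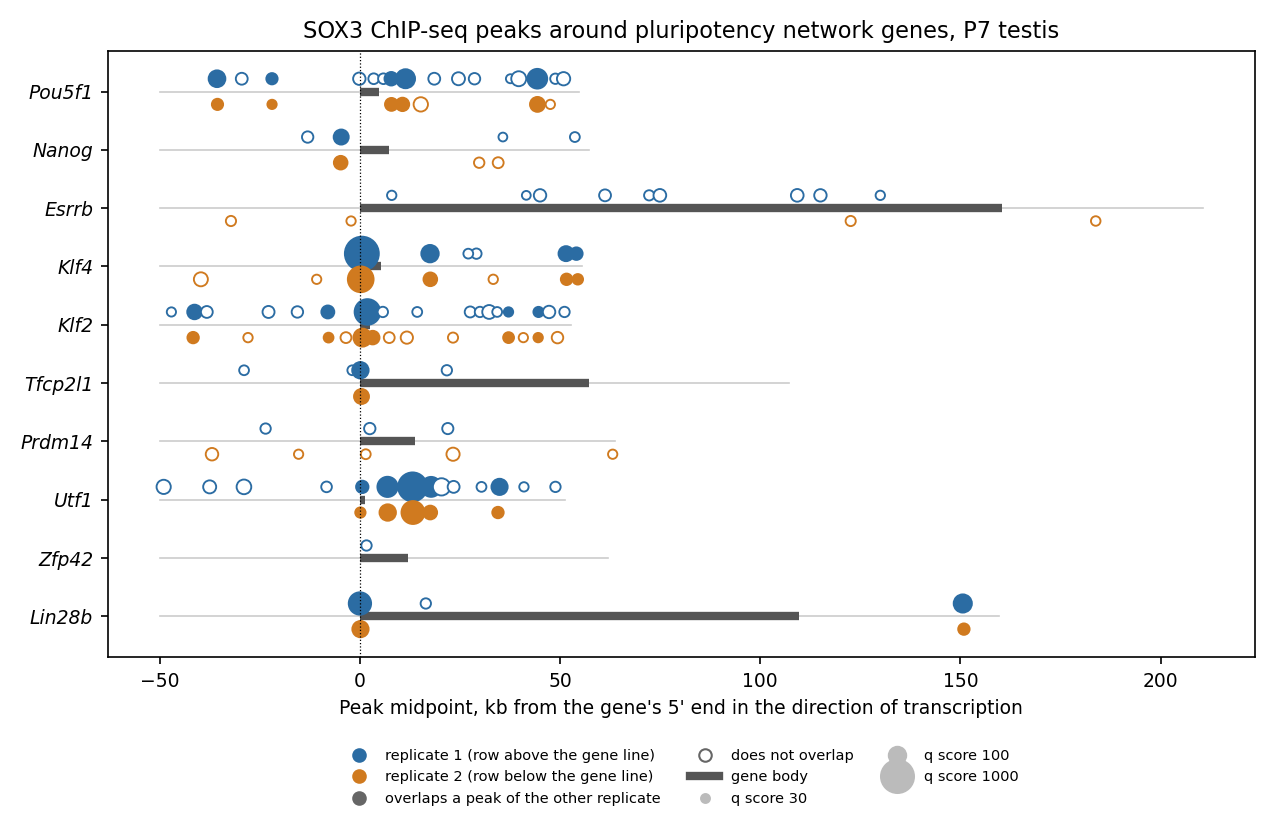
Position of every SOX3 peak within 50 kb of the 10 genes, as the distance in kb of its midpoint from the gene's 5′ end in the direction of transcription, with replicate 1 above and replicate 2 below the line of each gene, point size rising with the q score, and filled points where the peak overlaps a peak of the other replicate. Large filled points sit at the 5′ end of *Klf4*, *Klf2* and *Lin28b* and downstream of *Utf1*, and *Esrrb* has open points alone.

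**Figure D4:**
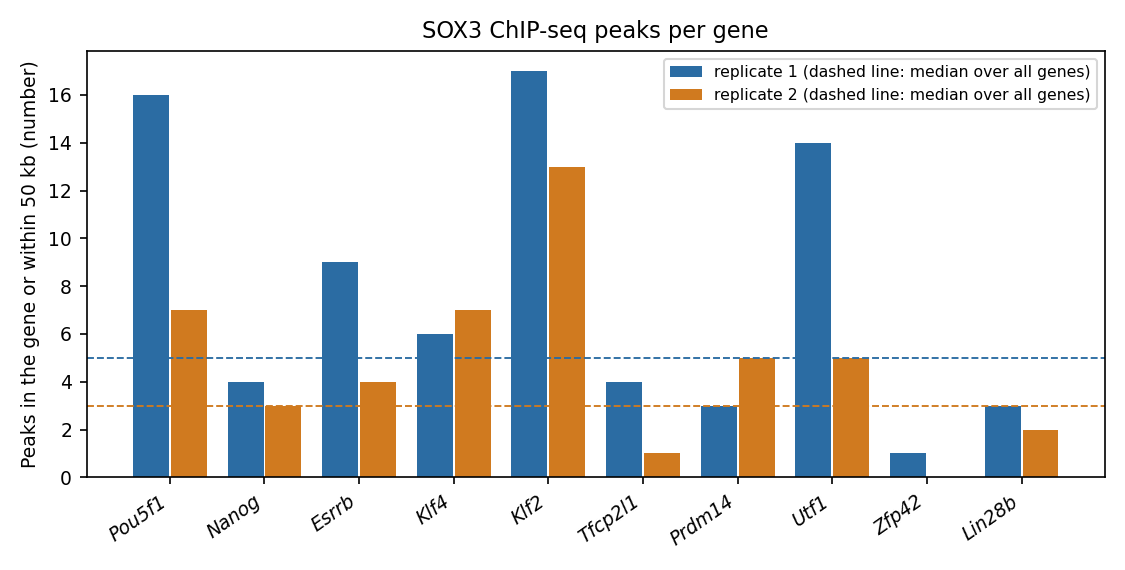
Number of SOX3 peaks in each gene or within 50 kb of it, with 1 bar per replicate and dashed lines at the median over all genes (5 and 3). *Klf2*, *Pou5f1* and *Utf1* had 17, 16 and 14 peaks in replicate 1, and *Zfp42* had 1 and 0.

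Of the 77 peaks of replicate 1, 17 (22.1%) were covered over at least 50% of their length by a peak of replicate 2, and of the 47 peaks of replicate 2, 23 (48.9%) were covered by a peak of replicate 1. The same shares over all peaks were 25.1% and 48.4%. Counting any overlap of 1 bp or more, 24 pairs of peaks lay at 7 of the 10 genes, and none at *Esrrb*, *Prdm14* or *Zfp42*. The q score was higher in replicate 1 in 23 of the 24 pairs and the log2 ratio in 21.

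Overlap followed the score. In replicate 1 the 23 overlapping peaks had a median q score of 85.9 (31.4 to 1128) and the 54 others 35.8 (30 to 98.5). In replicate 2 the medians were 50.1 (24 peaks) and 33.9 (23 peaks). Above a q score of 60, 16 of 19 peaks of replicate 1 and 7 of 8 of replicate 2 overlapped the other replicate, against 84.4% and 98.0% of all peaks at that score, whereas below 40 it was 3 of 37 and 11 of 29, against 10.7% and 31.3%. The 3 strong peaks of replicate 1 without a partner were 1 downstream of *Pou5f1* (q score 66.5) and 2 around *Utf1* (63.4 and 98.5), and the 1 of replicate 2 was downstream of *Pou5f1* (60.1).

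**Figure D5:**
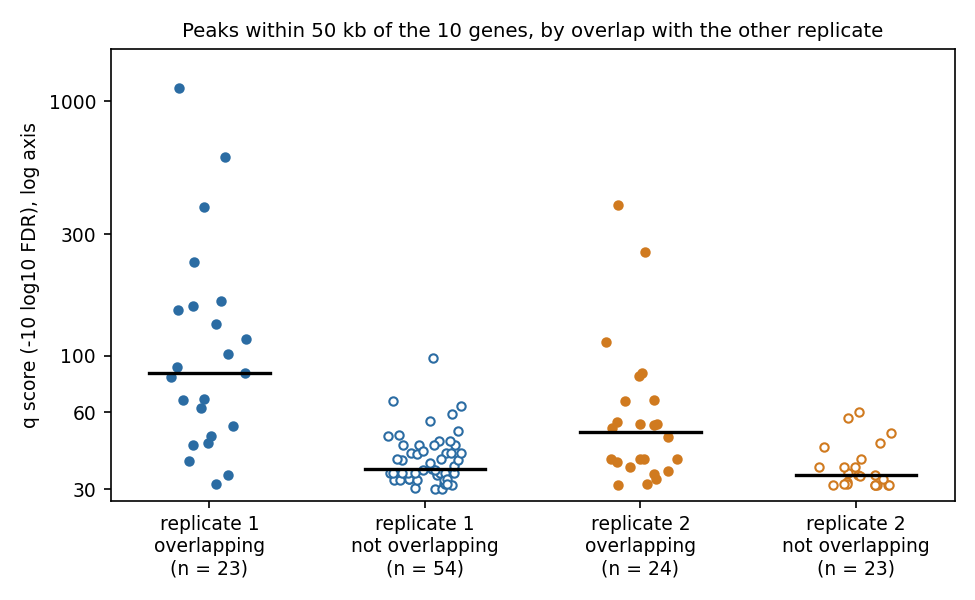
q scores (log axis) of the peaks within 50 kb of the 10 genes, 1 point per peak, split by replicate and by whether the peak overlapped a peak of the other replicate by 1 bp or more, with bars at the medians. Overlapping peaks have medians of 85.9 and 50.1 and the others 35.8 and 33.9, and no peak without a partner exceeds 98.5.

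Outside the promoters of the 10 genes, 19 pairs overlapped. The genes named beside them were chosen after the values were seen. The strongest stood downstream of *Utf1*, at 11054 and 11451 bp from its TSS, within 2 kb of the start sites of the microRNA genes *Mir202* and *Mir7686*. It had a q score of 605 and a log2 ratio of 5.31 over 4154 bp in replicate 1 (chr7:139954910-139959063) and 255 and 3.45 over 3539 bp in replicate 2 (chr7:139955307-139958845), percentiles 99.5 and 99.4. Another pair lay nearer to *Utf1*, at 5765 and 6149 bp, with q scores of 164 and 85.7. Further downstream lay a pair with q scores of 157 and 55.2, and a pair within 2 kb of the *Spef1l* start site with 82.6 and 39.2. All these pairs downstream of *Utf1* had higher scores than the peak over the *Utf1* TSS in the same replicate.

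Around *Pou5f1*, 4 of the 5 overlapping pairs lay in or beside neighbouring genes. A pair with q scores of 53.0 and 48.2 had its midpoint in an intron of *Tcf19*, a pair with 134 and 52.0 lay within 2 kb of the TSSs of *Tcf19* and *Cchcr1*, a pair with 151 and 66.4 lay at *Cdsn*, and a pair upstream with 90.3 and 38.3 lay at *H2-Q10*. None of the 5 pairs lay in the *Pou5f1* promoter, gene or the 2 kb beyond its end. Downstream of *Klf4*, an intergenic pair 16910 and 17096 bp from the TSS had q scores of 102 and 54.1, and near *Lin28b* a pair with 116 and 39.2 lay within 2 kb of the *Bves* start site. At *Klf2*, pairs within *Eps15l1* had scores near the threshold (31.4 and 36.7, and 34.1 and 31.5).

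The SOX-OCT elements through which these genes are known to be controlled in ES cells were next placed against the peaks. The composite was searched as TTGTNATGC on both strands, a SOX site next to an OCT site, and its first bases can be part of a SOX core match on the other strand. The well-known elements of 3 genes were found and are printed on the strand of the match, with the composite in capitals, as upstream enhancer of *Pou5f1* (1975 bp upstream of the TSS, chr17:35504043-35504071), promoter element of *Nanog* (68 bp upstream, chr6:122707407-122707435) and downstream enhancer of *Utf1* (1833 bp downstream, chr7:139945675-139945703).
Pou5f1 upstream element: tcatgcacctTTGTTATGCatctgccgtc
Nanog promoter element: accatggacaTTGTAATGCaaaagaagct
Utf1 downstream element: tgagccgtcaTTGTTATGCtagtgaagtg

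None of the 3 elements was inside a peak. The nearest peak to the *Pou5f1* element was 1032 bp away in replicate 1 and 9376 bp in replicate 2, to the *Nanog* element 4086 and 4241 bp, and to the *Utf1* element 317 and 1393 bp. The *Utf1* element was the closest, just beyond the edge of the peak that covered the gene in replicate 1.

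Within 50 kb of the 10 genes there were 35 composite matches in all (2.55 per 100 kb, against 2.78 per 100 kb of the genome), and each gene had at least 1. In replicate 1, 2 of them were inside a peak and in replicate 2 none was. Genome-wide 1.5% and 0.821% of the matches were inside peaks, where 2.37% and 1.38% of the bases were, and around the 10 genes peaks covered 6.21% and 3.50% of the bases. The 2 matches in peaks both lay downstream of *Pou5f1*, at 5534 bp (chr17:35514327-35514355, in the *Tcf19* peak with a q score of 53.0) and at 40454 bp (chr17:35549247-35549275, in the *Cdsn* peak with 151), and they missed the overlapping peak of replicate 2 by 12 and 31 bp.
Pou5f1 downstream, 5534 bp: acatagtagcTTGTCATGCatttatgggt
Pou5f1 downstream, 40454 bp: atcattatacTTGTCATGCttaactgttt

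The OCT octamer alone (ATGCAAAT, both strands) had 81 matches within 50 kb of the genes (5.89 per 100 kb, against 9.13 in the genome). Of these, 2 (2.47%) were in peaks of replicate 1 and 1 (1.23%) in a peak of replicate 2. Genome-wide, 0.897% and 0.518% of octamers were in peaks. Peaks covered 6.21% and 3.50% of the bases around the genes, and 2.37% and 1.38% of the genome. The 1 match inside peaks of both replicates lay upstream of *Klf2*, 7751 bp from the TSS (chr8:72311297-72311326), in peaks with q scores of 48.5 and 32.8. It is shown with the octamer in capitals.
Klf2 upstream octamer: acggctaggaaATGCAAATtgcagctacaa

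The SOX core, AACAAT or AACAAAG on either strand, is the short sequence that SOX HMG boxes contact. It was in 32 of the 77 peaks of replicate 1 (41.6%) and in 16 of the 47 peaks of replicate 2 (34.0%), and the shares over all peaks were 39.2% and 34.6%. The peaks around the 10 genes therefore held the core about as often as any peak of the lists. Their median widths were 674 and 706 bp, against 738 and 697 bp over all peaks, and wider peaks hold more matches. In the central 200 bp the shares were 10.4% and 6.38%, against 9.41% and 8.68%.

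Of 1075 core matches within 50 kb of the genes, 47 (4.37%) were in peaks of replicate 1 and 21 (1.95%) in peaks of replicate 2. Peaks covered 6.21% and 3.50% of the bases there. Genome-wide, 1.12% and 0.605% of core matches were in peaks, which covered 2.37% and 1.38% of the bases. Core matches inside peaks of both replicates numbered 13. As examples, 1 each from a peak near *Nanog*, *Klf4*, *Klf2* and *Utf1* is shown with the core in capitals and on the strand of the match: upstream of *Nanog* (5040 bp, chr6:122702435-122702464), in the promoter peak of *Klf4* (1097 bp upstream of the TSS, chr4:55533558-55533586), in that of *Klf2* (434 bp upstream, chr8:72318614-72318642) and in the strong peak near *Mir202* downstream of *Utf1* (12099 bp, chr7:139955941-139955970).
Nanog upstream peak: ttccagcaggttAACAATtggagagaatta
Klf4 promoter peak: aataagactaaAACAAAGactgccttttc
Klf2 promoter peak: aaggtagcttaAACAAAGatttcacagag
Utf1 downstream peak: ttgctgggacacAACAATtcctacggctcg

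In the 300-base promoters themselves, the SOX core was found at 2 of the 9 genes (*Pou5f1* at its second TSS and *Esrrb*) and in 15.7% of all promoters, the octamer at *Zfp42* (1.74% of all promoters) and the composite at *Nanog* (0.731%). None of these 4 genes had a promoter peak in both replicates, where 52.2% of all genes had one. How often all promoters with these sequences had a peak was not counted, so nothing follows from this for the motifs. The GC box (GGGCGG, either strand), which zinc finger factors of the SP and KLF families bind, was at *Pou5f1*, *Klf4*, *Klf2*, *Utf1* and *Zfp42*, 5 of the 9 genes, and in 35.7% of all promoters. A gene counted if any of its promoter sequences held the motif, whereas the shares of all promoters are per sequence. The gene counts and these shares are therefore not on the same scale.

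A second list of 30 genes of the wider network (further pluripotency factors, markers and chromatin regulators) was examined alongside. A promoter peak was listed for 21 of them in replicate 1, where 62.7% of all genes had one, and 16 in replicate 2, where 54.7% had one. Both replicates had a promoter peak at 16 (53.3%, against 52.2% of all genes), and the peaks overlapped at 15 (50%, against 50.8%). The exception was *Otx2*, named after its values were seen. The highest mean percentiles among the 15 were those of *Trim28* (q score 659.5 and 319), which encodes the KAP1 corepressor, *Jarid2* (372 and 117), a partner of Polycomb complex 2, *Mycn* (258 and 142), *Fbxo15* (174 and 169) and *Zfp281* (208 and 129.8). In replicate 1 alone there was a peak at *Sox2*, *Dppa3*, *Fgf4*, *Lin28a* and *Lefty1*, genes named here after their values were seen, with q scores of 37.9 to 53.0. No promoter peak was listed in either replicate for 9 genes, among them *Tcl1*, *Dppa2*, *Dppa4*, *Dppa5a*, *Tdgf1*, *Gdf3*, *L1td1* and *Foxd3*. *Sox2*, the third core factor, thus had a promoter peak with a q score of 53.0 in replicate 1 and none in replicate 2, as *Pou5f1* had 44.7 and none.

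ChIP-nexus gave no peak at these genes. Its lists held 110 and 18 peaks on mouse chromosomes, of which 0 lay within 50 kb of any of the 10 genes, and the nearest was 3714326 bp from *Klf4* in replicate 1. With lists this short, an absent ChIP-nexus peak says nothing about occupancy at any one gene.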

How the data were processed

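SOX3 ChIP-seq and ChIP-nexus peak lists from P7 mouse testis were used, 2 replicates each and 1 list per replicate. According to the methods and the submitters' processing notes, reads were aligned to mm10 with Novoalign, a read that fitted several places was put at a random one, and Picard was used to take out duplicates. ChIP-seq peaks were those that the authors obtained from USeq at a q score above 30. The deposited lists have no header, so the reading of their columns as p score, q score and log2 ratio of ChIP over input, normalized to input by the authors, was inferred from the caller's layout and the values. The deposited ChIP-nexus lists (MACS2 2.1.1) give a score, the fold enrichment at the summit as a ratio, and −log10 p and q, and only their positions were used here. The methods describe taking blacklisted regions out of the peaks, but do not say whether this covers the lists of single replicates. The study states read numbers for each library, which were not used here, and by these the ChIP-seq library with fewer peaks was the deeper one.

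Genes and TSSs were RefSeq curated transcripts of GRCm38.p6 (mm10), 45756 transcripts of 26182 genes. Peaks were placed by any base within 2 kb of a TSS, in the gene, or within 50 kb of it, and the replicates were compared by a cover of at least 50% or an overlap of 1 bp. Levels are each replicate's own values, and scores were ranked only within a list. No test was possible with 2 lists of 1 condition, so counts stand beside the percentage of all genes. Motifs and CpGs were counted in the RefSeq promoter table and the genome. Python 3.11.15, pandas, numpy and matplotlib were used, and the overlap code was tested on simulated data and against bedtools 2.31.1. Alternatives covered the score, windows, annotation, overlap rule, motif and replicates. The genes and lists were chosen with earlier results of these data known. Genes were named by a rule: the 10 genes, any gene with a TSS within 2 kb of their promoter peaks (there was none), and, of the second list, the 5 with the highest mean percentile of overlapping promoter peaks and those with no promoter peak, of which not all are reported here. The 15 other samples were not analysed here.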

Additional observations from a re-analysis of the deposited data

How the results depend on the processing

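The 4 genes with a promoter peak in both replicates became 3 above a q score of 60, 4 with a window of 1 kb or with the peak midpoint in the window, 5 with GENCODE TSSs, 6 with all RefSeq transcripts and 8 with a window of 5 kb, where *Pou5f1*, *Nanog*, *Esrrb* and *Prdm14* were added. The share of all genes, 52.2%, was 35.2% above a q score of 60, 50.2% with 1 kb, 53.2% with all transcripts and 56.4% with 5 kb. It was not counted with GENCODE TSSs or with the peak midpoint, so those counts cannot be read against all genes. *Lin28b* gained a promoter peak in both replicates with predicted or GENCODE TSSs, *Esrrb* with predicted ones, and *Zfp42* lost its peak with 1 kb. Counted in 1 replicate, without replicate 1 or 2, promoter peaks were at 5 to 8 genes. Above a q score of 60, gene-body peaks in both replicates were at 4 genes in place of 7, and at 36.0% of all genes in place of 56.8%. The mean number of peaks over the replicates, 62.0 within 50 kb, was 31.5 within 20 kb, 94.5 within 100 kb and 13.5 above a q score of 60. Above that score the mean share of peaks found in the other replicate rose from 35.5% to 56.9%. The share with a SOX core rose from 37.8% to 60.2%, and the core share of all peaks above that score was not counted. The core share was 69.8% with ACAAT or ACAAAG and 8.39% in the central 200 bp. The difference in median CpG observed/expected between genes with and without a promoter peak in both replicates, 0.384, was 0.338 over 1 kb and 0.443 with a peak in at least 1 replicate, where *Nanog* was the single gene without one, and 0.384 to 0.443 without replicate 1 or 2. The share found in the other replicate has no value without a replicate. No paired analysis was possible because the lists hold a single condition. The short ChIP-nexus lists, and ChIP-seq lists that give no reads per peak, limit what an absent peak can show.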
